A study of Mus musculus with 27 samples.

Results

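The RAF/MEK inhibitor response of Arid1a knockout mouse thyroid tumor cells was measured by RNA-seq in 6 libraries of 27 in the series, from 3 of its 12 tumor lines. The libraries were chosen by their labels: lines BA45198, BA47473 and BA49112 each gave 1 library with the inhibitor CH5126766 (CKI) and 1 with vehicle, and the 2 were paired by line. All 3 lines carry Braf(V600E) together with Arid1a KO, so the mutant Braf allele is shared by treated and vehicle cells alike. CKI was used at 300 nM for 8 days, and the vehicle was 40% Trappsol, a cyclodextrin. Bovine TSH (thyrotropin) is named in the treatment description, whose wording does not settle whether vehicle cultures also received it. If they did not, CKI and TSH cannot be told apart in any change from vehicle to CKI. The lines grew out of tumors that were cut up, digested with collagenase and dispase and plated. Each line has its own id, and the labels do not say which animal it came from. The p-values measure the spread of the CKI change between lines, not animals, with each line's own level removed. That spread is pooled over all 12 tumor lines of the series and not taken from these 3 alone. The sources used here do not give the Cre driver, the sex and age of the mice or the strand setting of the counts. For comparison, lines with Braf(V600E) alone and lines with Braf(V600E) + Arid2 KO, 3 of each, had the same treatment. The fit also held 3 lines with Braf(V600E) + Smarcb1 KO under both treatments. Of their CKI libraries, those of BS53958 and BS53965 were shallow, at 11684983 and 2884130 counts. Untreated wildtype libraries, 3 in number, serve only as a context for the levels of thyroid genes.

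Braf(V600E) signals to the kinases MEK and ERK without needing RAS, and ERK phosphorylates transcription factors that set proliferation and restrain thyroid differentiation. CKI binds MEK and holds it in an inactive complex with RAF, so that it lowers the activity of both kinases. Cells answer a fall in ERK activity by losing ERK's own feedback inhibitors, the Dusp phosphatases and the Sprouty and Spred proteins, and thyroid cells freed from MAPK signalling can regain genes for iodide handling, which is the aim of redifferentiation therapy. Arid1a is a DNA-binding subunit that defines the BAF form of SWI/SNF, an ATP-driven machine that moves nucleosomes and opens enhancers.

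The 6 libraries held between 20860235 and 26670135 counts in genes. The Arid1a gene itself was counted at 98.1, 69.6 and 77.8 CPM under vehicle and 64.2, 75.2 and 90.2 CPM with CKI, given in the order BA45198, BA47473 and BA49112, which is the order of all values below. CPM (counts per 1e6) use library sizes after TMM scaling. These ranges overlapped and the change was -0.094 ± 0.17, adjusted p = 0.702; a count over all exons is no check of a partial deletion. Braf lay at 68.3, 76.4 and 60.8 CPM under vehicle and 92.4, 146 and 96.5 CPM with CKI. Every CKI library was above every vehicle library (0.68 ± 0.17, adjusted p = 0.0149). Blood cell markers were low throughout: 9 leukocyte markers summed to 2.42 to 3.98 CPM under vehicle and 3.06 to 4.30 CPM with CKI, with Cd3e at 0, and 2 beta globins were at 0. Fibroblast markers summed to 1394 to 3799 CPM under vehicle and 2199 to 7286 CPM with CKI, and whether these come from the tumor cells was not tested. In bulk RNA, fewer cells of a kind and less RNA per cell cannot be told apart. With a line left out, Braf without BA47473 and Braf without BA49112 no longer passed. Dropping the line block left Braf uncalled.

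A large share of the transcriptome of these lines differed between CKI and vehicle cultures. Of 15634 genes tested, 2665 rose (17.0%) and 2388 fell (15.3%) at an adjusted p under 0.05 by edgeR's quasi-likelihood test with the line as a block (n = 3 lines), which is 32.3% in either direction. A change is the log2 ratio of CKI to vehicle, printed with its standard error. Where the 6 Arid1a KO values of a gene are printed, they did not overlap between vehicle and CKI unless overlap is stated. Genes given by their change alone may overlap. The median change of all genes was 0.027, that of the genes that rose was 1.52 and that of the genes that fell was -1.0. Rises over 16-fold numbered 378, and falls of that size numbered 240. Among called genes 99.4% had the same sign in 3 of 3 lines, against 65.7% of all genes tested, and 91% had no overlap between vehicle and CKI libraries, against 46.6%. With each line left out in turn, always given in the order BA45198, BA47473 and BA49112, 3296, 2828 and 2306 genes were called. Without the line block 2177 were called, of which 99.1% were among the 5053. A fit of only the 6 Arid1a KO libraries, paired by line, called 3589 of 13496 genes tested. In the Braf lines the same fit called 388 genes (2.48%), 222 higher (1.42%) and 166 lower (1.06%). In the Arid2 KO lines it called 981 (6.27%), 550 higher (3.52%) and 431 lower (2.76%). The median standard error was 0.29 in each, which follows from a spread pooled over genotypes and does not show equal agreement of lines. Line responses correlated at 0.38 to 0.54 among Braf, 0.40 to 0.56 among Arid2 KO and 0.67 to 0.77 among Arid1a KO lines. The median size of the change per line was 0.55, 0.55 and 0.65 in the Arid1a KO lines and 0.35, 0.35 and 0.48 in the Braf lines, so each Arid1a KO line lay above each Braf line, and that of Arid2 KO line AB51189, 0.58, lay among them.

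ERK output genes, which read the activity of the pathway, mostly fell. Of 20 tested, 11 fell (55%, against 15.3% of all genes), 2 rose (10%, against 17.0%) and 7 did not pass. The median was -1.08, and 16 had no overlap between vehicle and CKI libraries, against 46.6% of all genes. The number that fell was 9, 10 and 8 with each line left out in turn and 9 without the line block. Dusp4, a phosphatase that removes the activating phosphates from ERK in the nucleus, was at 81.4, 64.4 and 117 CPM under vehicle and 17.6, 10.8 and 14.7 CPM with CKI. All 3 CKI libraries were far below all 3 vehicle libraries (-2.59 ± 0.19, adjusted p = 8.43e-05). Spry4, a Sprouty protein that blocks RAS activation, went from 203, 205 and 211 to 39.0, 15.5 and 17.8 CPM. Again the groups did not overlap, and the vehicle libraries were nearly equal (-3.22 ± 0.38, adjusted p = 0.000525). Dusp6, the cytoplasmic ERK phosphatase, was at 372, 216 and 169 CPM under vehicle and 73.0, 80.5 and 52.1 CPM with CKI. The lowest vehicle library was above the highest CKI library (-1.82 ± 0.38, adjusted p = 0.00545). Etv4 and Etv5 are ETS transcription factors stabilised by ERK. Etv4 went from 188, 184 and 134 to 2.13, 21.2 and 11.5 CPM, with BA45198 the lowest after treatment (-4.24 ± 0.86, adjusted p = 0.00509), and Etv5 from 157, 186 and 134 to 53.8, 53.4 and 58.2 CPM, without overlap (-1.52 ± 0.24, adjusted p = 0.00177).

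Fosl1, an AP-1 subunit made under sustained ERK activity, was at 10.3, 9.20 and 31.9 CPM under vehicle and 1.59, 0.852 and 3.77 CPM with CKI. It was highest in BA49112 in both conditions, and the groups did not overlap (-3.05 ± 0.56, adjusted p = 0.00314). Ccnd1, the cyclin that couples ERK to entry into the cell cycle, went from 1553, 1679 and 2329 to 288, 276 and 526 CPM. Each line lost most of it (-2.39 ± 0.51, adjusted p = 0.00626). Spred3 and Spred2, inhibitors of RAF activation, changed by -1.59 and -0.87, Dusp5 by -1.32 and Myc by -1.0. The pair that rose were Epha4, an ephrin receptor, at 2.85, 0.314 and 2.97 CPM under vehicle and 12.5, 85.7 and 30.1 CPM with CKI, and Ier3, a survival gene, at 28.5, 22.5 and 28.5 CPM under vehicle and 285, 96.3 and 74.9 CPM with CKI. In both the CKI libraries were all above the vehicle libraries (4.04 ± 1.04, adjusted p = 0.0149 for Epha4; 2.27 ± 0.72, adjusted p = 0.0347 for Ier3). Egr1 (-0.49), Epha2 (-0.61), Etv1 (-1.16), Phlda1 (0.47), Spred1 (0.40), Spry1 (0.90) and Spry2 (-0.63) did not pass. The Braf lines had a median of -0.78 over these genes with 4 called lower and the Arid2 KO lines -0.93 with 7. In either direction DESeq2 called 12 and 11 of them there, and 12 and 13 had an unadjusted p under 0.05 by edgeR. By edgeR none of the 20 passed the test of the difference from the Braf lines, 3 had an unadjusted p under 0.05, and DESeq2 called 1. Leaving out a line took Spred2, Dusp5 and Ier3 without BA45198, and Myc and Ier3 without BA47473, and Spred2, Dusp5, Myc, Epha4 and Ier3 without BA49112 out of the called genes. A fit that ignored the pairing by line did not call Dusp5 and Myc.

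**Figure D1:**
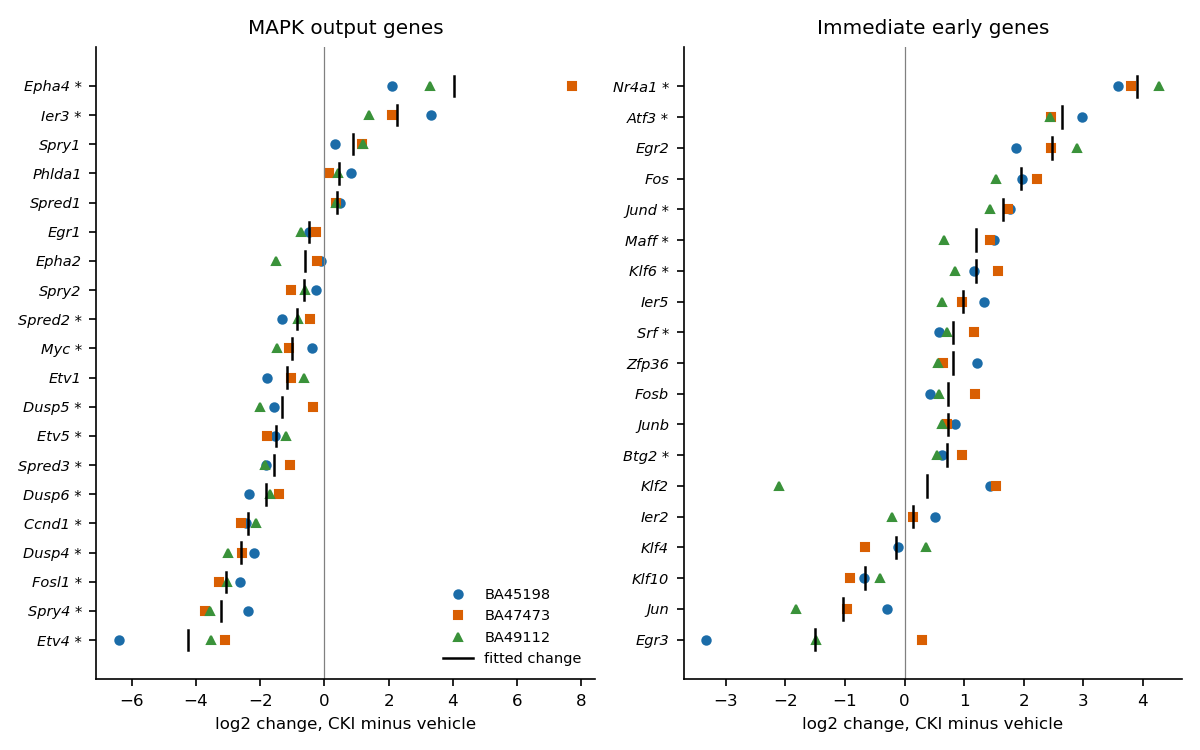
Log2 change from vehicle to CKI for each MAPK output gene (left) and immediate early gene (right), with 1 symbol per Arid1a KO line and a bar at the fitted change; an asterisk marks an adjusted p under 0.05. Most output genes lie left of 0 in all 3 lines, down to -4.24 for Etv4, while the called immediate early genes lie right of 0, up to 3.89 for Nr4a1.

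Immediate early genes, which serum and ERK switch on within minutes without new protein, went the other way after 8 days. Of 19 tested, 7 rose (36.8%, against 17.0% of all genes), none fell and 12 did not pass (median 0.81). With each line left out in turn 6, 5 and 6 rose, and without the line block 4 did. Nr4a1, an orphan nuclear receptor, was at 16.8, 10.2 and 9.35 CPM under vehicle and 201, 144 and 183 CPM with CKI. Every line gained it more than the vehicle libraries differed among themselves (3.89 ± 0.70, adjusted p = 0.00301). Atf3, a stress-inducible bZIP factor, went from 6.17, 4.22 and 5.42 to 49.1, 23.6 and 29.8 CPM. The CKI libraries were all above the vehicle libraries (2.64 ± 0.26, adjusted p = 0.000294), as for Jund (34.0, 26.9 and 33.9 to 116, 89.4 and 91.9 CPM; 1.65 ± 0.35, adjusted p = 0.00624). Klf6, Maff, Srf and Btg2 rose by 1.20, 1.20, 0.82 and 0.71. Of 7 AP-1 partners 2 rose and 1 fell (28.6% and 14.3%, against 17.0% and 15.3% of all genes). Fosl2, a relative of Fosl1, went from 110.3, 76.3 and 105 to 771, 509 and 525 CPM (2.62 ± 0.20, adjusted p = 9.02e-05), without overlap, while Fosl1 fell as above. Among the genes given here, Btg2 without BA45198, and Srf and Btg2 without BA47473, and Btg2 without BA49112 did not pass. The fit without the line block did not call Klf6, Srf and Btg2.

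Of 20 genes of the RAS, RAF, MEK and ERK core 5 rose and 3 fell, 40% against 32.3% of all genes, with a median of 0.033, and the number that rose was 2, 1 and 1 with each line left out in turn and 2 without the line block. Ksr1, a scaffold that brings RAF, MEK and ERK together, was at 2.90, 1.3 and 4.19 CPM under vehicle and 70.9, 49.0 and 46.7 CPM with CKI. All 3 lines had little before treatment and much after it (4.41 ± 0.59, adjusted p = 0.000808). Rasa2, a GTPase-activating protein that turns RAS off, went from 112, 154 and 150.3 to 31.9, 33.6 and 35.5 CPM without overlap (-2.03 ± 0.17, adjusted p = 0.000122), and Rasa1, of the same kind, changed by -1.52. Among 23 receptor tyrosine kinases and ligands 7 rose and 2 fell, 39.1% (median 0.38); 6, 4 and 5 with each line left out in turn and 3 without the line block rose. Fgfr2, a receptor for fibroblast growth factors, was at 1.42, 0.224 and 0.306 CPM under vehicle and 22.7, 30.2 and 17.1 CPM with CKI. It was near the floor in vehicle cells of BA47473 and BA49112 and at 17.1 CPM or more in every CKI library (5.4 ± 0.85, adjusted p = 0.0016). Egfr, the receptor for epidermal growth factor, went from 36.0, 8.66 and 5.77 to 106, 56.0 and 152 CPM (2.94), and Nrg1, the ligand of Erbb3 and Erbb4, from 24.1, 8.93 and 38.8 to 141, 127 and 118 CPM (2.64 ± 0.49, adjusted p = 0.00334). Igf1, the growth factor of the insulin family, was at 58.0, 2.15 and 0.0437 CPM under vehicle and 713, 260.4 and 163 CPM with CKI. The lines changed by 3.62, 6.86 and 10.20, so its size differed widely between them although the sign did not (6.39 ± 1.45, adjusted p = 0.00844). Axl, a receptor bound by Gas6, fell from 717, 693 and 912 to 152, 330.3 and 244 CPM (-1.74 ± 0.29, adjusted p = 0.00218), again without overlap. With a line left out, Igf1 without BA47473 no longer passed. In the fit without line terms, Igf1 and Axl did not pass.

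Genes of the thyroid follicular cell rose in part. Of 19 listed, 13 had enough counts to be tested. Of these 7 rose (53.8%, against 17.0% of all genes), none fell and 6 did not pass (median 1.99). With each line left out in turn 5, 6 and 5 rose, and without the line block 4 did. The other 6 were too low in all groups to be tested. Tg, thyroglobulin, the protein on which hormone is made, was at 17.8, 0.673 and 1.05 CPM under vehicle and 283, 42.8 and 249.6 CPM with CKI. Every CKI library lay above every vehicle library (5.81 ± 1.26, adjusted p = 0.0068), by 3.98, 5.80 and 7.77 per line. Tshr, the receptor for thyrotropin, was at 1.74, 0.179 and 0.393 CPM under vehicle and 179, 14 and 29.5 CPM with CKI. The lines changed by 6.61, 5.69 and 5.92 (6.43 ± 1.17, adjusted p = 0.00309), and BA45198 reached the highest level. Nkx2-1, a homeodomain factor that marks thyroid and lung, went from 111, 45.8 and 35.3 to 232, 241 and 198 CPM. BA45198 had most of it before treatment and the lines were similar afterwards (1.99 ± 0.41, adjusted p = 0.00525). Thrb and Thra, the nuclear receptors of thyroid hormone, went from 0.738, 0.987 and 0.0437 to 13.3, 64.4 and 10.4 CPM (5.58 ± 0.78, adjusted p = 0.00101) and from 31.7, 39.4 and 21.5 to 96.4, 116 and 129 CPM (1.91 ± 0.32, adjusted p = 0.00224). Neither overlapped between treatments. Glis3, a zinc finger factor needed for hormone synthesis, rose by 2.25, and Dio2, which activates thyroid hormone, by 2.99 with overlap. The adjusted p rose to 0.05 or above for Glis3 and Dio2 without BA45198, and Dio2 without BA47473, and Glis3 and Dio2 without BA49112. A fit that ignored the pairing by line did not call Nkx2-1, Glis3 and Dio2.

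The genes that concentrate iodide and build hormone did not follow. Slc5a5, the sodium-iodide symporter, was at 0.0527, 0.314 and 0.481 CPM under vehicle and 0.116, 0.142 and 0.351 CPM with CKI. These ranges overlapped at a fraction of 1 CPM (-0.37 ± 0.73, adjusted p = 0.721). Dio1, a deiodinase, had no counts in any of the 6 libraries. Pax8, the paired-box factor of the lineage, was at 72.2, 38.6 and 35.9 CPM under vehicle and 96.7, 54.5 and 90.4 CPM with CKI (0.75 ± 0.33, adjusted p = 0.102), higher in each line but with overlap. Hhex (-0.48), Duox1 (0.29), Duoxa1 (-0.35) and Foxe1 (3 counts under vehicle and 19 with CKI) did not pass either. C cell and parathyroid markers, the other endocrine cells of the gland, summed to 1.35 to 10.1 CPM under vehicle and 9.48 to 50.2 CPM with CKI, with Gcm2 at 0, and their part in these changes was not tested. The summed level of the thyroid list was 140 to 365 CPM under vehicle and 645 to 1174 CPM with CKI. Set beside the 3 untreated wildtype libraries of the series, which carry the same source label as the lines, Tg in the CKI libraries reached 42.6 to 274 CPM of unscaled total counts against 206650 to 289641. Tshr, at 14 to 173 against 81.3 to 142, and Thrb, at 10.1 to 64.2 against 21.8 to 39.1, overlapped the wildtype range, whereas Slc5a5 was at 0.112 to 0.340 against 107 to 379. In the Braf lines, with a median of 0.81, edgeR called none of the 13 (DESeq2 called 2, and 6 had an unadjusted p under 0.05). It called none in the difference from the Braf lines either (DESeq2 called 1, and 2 had an unadjusted p under 0.05), where Thrb came closest, with 5.43 ± 0.98, adjusted p = 0.0595.

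**Figure D2:**
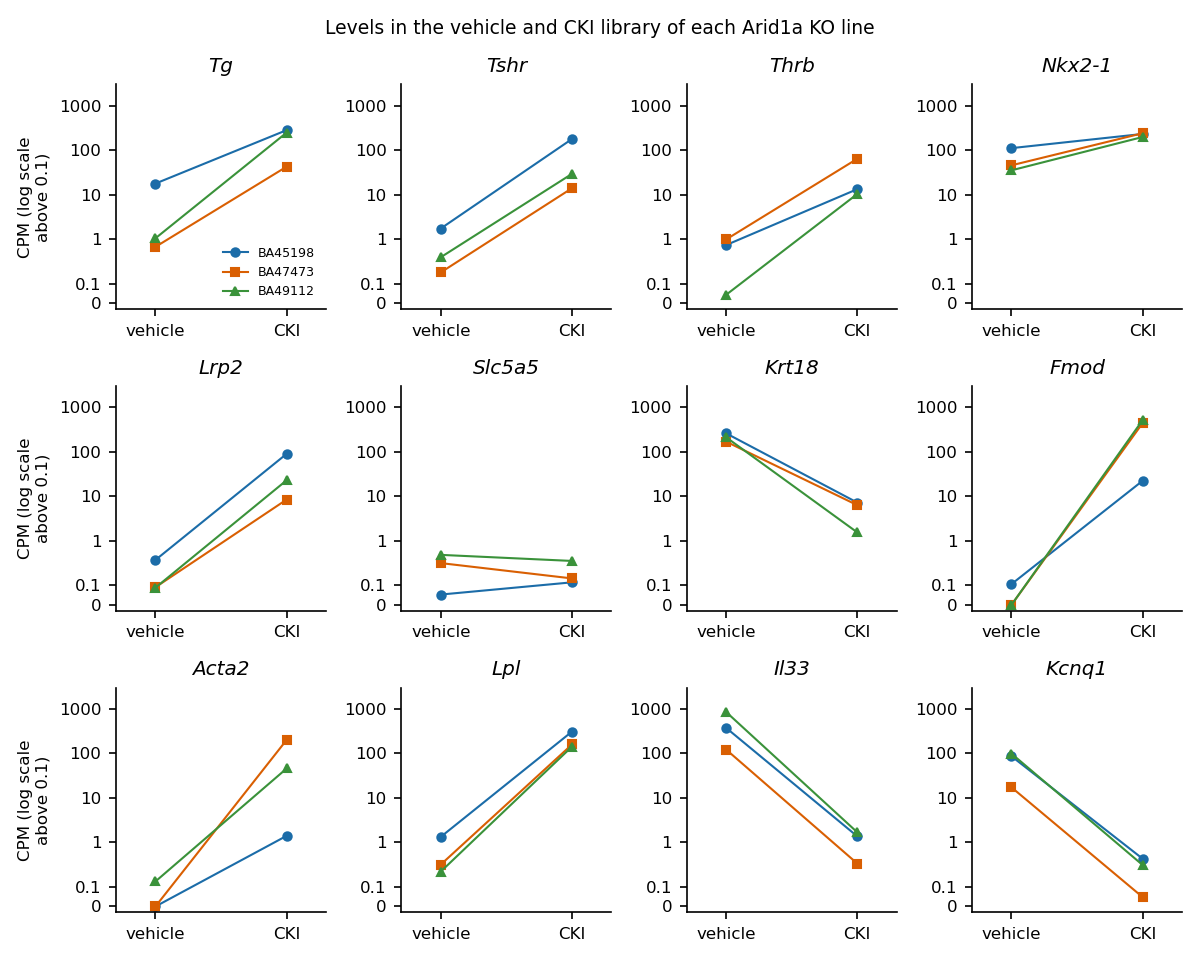
CPM in the vehicle and CKI library of each Arid1a KO line for 12 genes, on an axis that is logarithmic above 0.1 CPM; each line joins the 2 libraries of 1 tumor line. Tg, Tshr, Thrb, Nkx2-1, Lrp2, Fmod, Acta2 and Lpl go up in all 3 lines, Slc5a5 stays below 1 CPM in all 6 libraries, and Krt18, Il33 and Kcnq1 go down in all 3 lines.

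Genes that handle thyroglobulin, hormone and ions in the follicle split. Of 13 listed, 10 were tested, and 4 rose and 2 fell (40% and 20%, against 17.0% and 15.3% of all genes). With each line left out in turn 5, 2 and 1 rose, and without the line block 1 did. Lrp2, megalin, the endocytic receptor for thyroglobulin, was at 0.369, 0.0897 and 0.0874 CPM under vehicle and 89.8, 8.43 and 22.9 CPM with CKI. It was below 0.4 CPM in each vehicle library and at 8.43 CPM or more in each CKI library (7.64 ± 1.04, adjusted p = 0.000906). Cdh16, a cadherin of thyroid and kidney, had 3 counts under vehicle and 287 with CKI, 88.0-fold higher (95% counting interval 29.8 to 429), which covers counting error only. Folr1, a folate receptor, rose by 3.98. Kcnq1, a potassium channel of the follicular cell, was at 85.8, 17.2 and 98.4 CPM under vehicle and 0.425, 0.0474 and 0.307 CPM with CKI. All 3 CKI libraries were below 0.5 CPM (-7.99 ± 1.39, adjusted p = 0.00249). Slco4a1, an organic anion transporter that carries hormone, had 1027 counts under vehicle and 2 with CKI, 558-fold lower (95% counting interval 154 to 4617). Downstream of Tshr, 6 of 18 genes of the cAMP pathway rose (33.3%, against 17.0% of all genes) and 4 fell (22.2%, against 15.3%). Their median was 0.36, and 4, 5 and 3 with each line left out in turn and 3 without the line block rose. Pde4b and Pde4d, phosphodiesterases that cAMP itself induces, went from 9.17, 0.897 and 1.09 to 223, 103 and 88.4 CPM (5.83 ± 0.85, adjusted p = 0.00121) and from 4.74, 0.942 and 1.70 to 243, 41.4 and 51.7 CPM (5.36 ± 0.97, adjusted p = 0.00302). Crem, a cAMP-inducible regulator, rose by 1.92, and Adcy8, a calcium-activated cyclase, fell by 3.60 on the log2 scale. Since the label does not settle whether vehicle cells received TSH, CKI and TSH cannot be told apart for any gene here. The thyroid and cAMP genes are included in this. Among the genes given here, Cdh16 without BA47473, and Cdh16 and Folr1 without BA49112 did not pass. Dropping the line block left Cdh16 and Folr1 uncalled.

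The machinery of protein synthesis fell together. All 74 tested genes for cytosolic ribosomal proteins fell (100%, against 15.3% of all genes), with changes between -0.53 and -1.49 (median -1.0). Of these, 72 had no overlap between treatments, against 46.6% of all genes. The number that fell stayed at 70 to 73 with a line left out and at 71 without the line block. Per line the median change was -1.20, -0.80 and -1.04. Many of these genes have processed pseudogenes that can share reads, so a single member's size is less certain than the direction of the list. The same genes had medians of -0.62 with 36 lower in the Braf lines and -0.69 with 52 lower in the Arid2 KO lines, where DESeq2 called 61 and 64 and 72 and 70 had an unadjusted p under 0.05 by edgeR. Of 19 genes that build ribosomes in the nucleolus 17 fell (89.5%, against 15.3% of all genes) and none rose (median -1.0). With each line left out in turn 18, 9 and 4 fell, and without the line block 9 did. Dkc1, the pseudouridine synthase of ribosomal RNA, was at 45.6, 94.0 and 109 CPM under vehicle and 20.7, 32.2 and 26.8 CPM with CKI. Npm1, nucleophosmin, went from 526, 837 and 1112 to 229.8, 431 and 365 CPM. In both genes BA49112 had the highest vehicle level, and no CKI library reached any vehicle library (-1.57 ± 0.26, adjusted p = 0.0021 and -1.25 ± 0.23, adjusted p = 0.00324). Cytosolic aminoacyl-tRNA synthetases, which charge tRNAs, had 13 of 20 lower (65%, against 15.3% of all genes) and none higher (median -0.92). With each line left out in turn 13, 6 and 3 were lower, and without the line block 11 were. Wars, the tryptophan enzyme, went from 150.1, 244 and 308 to 70.6, 73.6 and 66.5 CPM (-1.68 ± 0.33, adjusted p = 0.00434). The per-line medians of this list, -0.39, -0.87 and -1.57, were unequal. MYC targets for nucleotide and folate synthesis had 10 of 15 lower and 1 higher (66.7% and 6.67%, against 15.3% and 17.0% of all genes). Their median was -0.79, with Shmt2, the mitochondrial serine hydroxymethyltransferase, at -2.14. With each line left out in turn 6, 8 and 4 were lower, and without the line block 3 were.

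Glycolysis also went down. Of 20 genes for glycolysis and the hypoxia response 15 fell (75%, against 15.3% of all genes) and 2 rose (10%, against 17.0%). Their median was -1.19. With each line left out in turn 12, 12 and 12 were lower, and without the line block 9 were. In the Braf lines 10 were lower (median -1.22), and in the Arid2 KO lines 11 were. In either direction DESeq2 called 14 and 13 of 19 there, and 16 and 14 had an unadjusted p under 0.05 by edgeR. Slc2a1, the glucose transporter Glut1, was at 166, 191 and 321 CPM under vehicle and 57.6, 46.0 and 83.7 CPM with CKI. Pfkl, phosphofructokinase of liver type, went from 215, 299 and 199.8 to 73.0, 65.9 and 81.1 CPM. For both, all CKI libraries lay below all vehicle libraries (-1.84 ± 0.21, adjusted p = 0.000478 and -1.68 ± 0.18, adjusted p = 0.000387). Pgk1, phosphoglycerate kinase, went from 163, 219 and 231 to 52.1, 65.5 and 64.6 CPM (-1.74 ± 0.23, adjusted p = 0.000742), and Ldha, which turns pyruvate into lactate, from 1222, 979.8 and 1271 to 484, 650.4 and 513 CPM (-1.08 ± 0.20, adjusted p = 0.00349). Slc16a3, the lactate exporter Mct4, went from 3.85, 5.92 and 11.8 to 0.503, 0.379 and 0.834 CPM (-3.56 ± 0.66, adjusted p = 0.0033). The 2 that rose were Pfkfb3 and Hk2. Pfkfb3, which makes the activator of phosphofructokinase, went from 26.2, 15.5 and 18.7 to 218, 72.2 and 42.7 CPM (2.16 ± 0.31, adjusted p = 0.00108), and Hk2, hexokinase, from 31.4, 44.2 and 39.5 to 331, 92.3 and 104 CPM (1.92 ± 0.52, adjusted p = 0.019), whose change was 1.21 without BA45198. The adjusted p rose to 0.05 or above for Hk2 without BA45198 and Hk2 without BA49112. Without the line block, Ldha no longer passed.

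The promoters of 3 of these genes are shown because they hold the core letters bound by hypoxia-inducible factors, ACGTG, and fell. Bases are the 250 before the RefSeq start of transcription on the strand of the gene, in GRCm38.p6, a later build than the mm9 of the counts, and capitals mark ACGTG on either strand (CACGT where it is on the other strand).
Ldha (chr7:46845554-46845803, + strand): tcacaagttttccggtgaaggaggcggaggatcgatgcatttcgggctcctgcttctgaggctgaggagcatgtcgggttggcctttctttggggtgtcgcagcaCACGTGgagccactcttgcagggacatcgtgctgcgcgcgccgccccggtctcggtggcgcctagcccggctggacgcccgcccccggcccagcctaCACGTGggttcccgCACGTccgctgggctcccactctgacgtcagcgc
Pgk1 (chrX:106186850-106187099, + strand): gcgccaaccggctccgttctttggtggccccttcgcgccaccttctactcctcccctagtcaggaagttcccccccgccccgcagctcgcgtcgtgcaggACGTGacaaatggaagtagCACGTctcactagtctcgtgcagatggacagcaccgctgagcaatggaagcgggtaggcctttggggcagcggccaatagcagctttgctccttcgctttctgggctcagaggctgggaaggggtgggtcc
Slc16a3 (chr11:120948817-120949066, + strand): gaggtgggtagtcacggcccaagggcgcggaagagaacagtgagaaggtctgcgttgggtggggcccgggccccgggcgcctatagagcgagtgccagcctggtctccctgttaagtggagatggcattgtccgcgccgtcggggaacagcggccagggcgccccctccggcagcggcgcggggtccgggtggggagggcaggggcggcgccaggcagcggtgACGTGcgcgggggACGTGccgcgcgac
Of the 20 list members 19 had a RefSeq promoter, and 14 of these held ACGTG on 1 of the strands (73.7%), as did 18.5% of 27025 genes. A gene with several promoters counts if any of them holds the letters. Pfkfb3 and Hk2, the 2 members that rose, are among the 14, so genes with these letters changed in both directions. The letters overlap with the E-box CACGTG, which contains them, and a palindromic CACGTG counts as a match on each strand. A match describes these letters only.

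Cell cycle genes had negative changes throughout, with fewer calls. All 28 genes of DNA replication and the G1/S step were lower in the fit, and 23 had no overlap, against 46.6% of all genes. Of the 28, 12 passed (42.9%, against 15.3% of all genes called lower), with a median of -1.28. With each line left out in turn 4, 5 and 2 passed, and without the line block 5 did. All 26 mitosis genes were lower and 25 had no overlap, with 10 passing (38.5%, against 15.3% of all genes called lower). Their median was -1.48, and 0, 2 and 2 passed with each line left out in turn and 3 without the line block. Per line the median of the mitosis genes was -2.69, -0.91 and -0.84, so the change was largest in BA45198. E2f8, a repressor made in S phase, was at 84.9, 125 and 231 CPM under vehicle and 6.11, 18.4 and 14.3 CPM with CKI. The change was -3.52 ± 0.59, adjusted p = 0.00205. Anln, anillin, a scaffold of the cleavage furrow, went from 235, 323 and 296 to 42.9, 116 and 105 CPM (-1.80 ± 0.40, adjusted p = 0.00785). Mki67, the proliferation antigen, went from 294, 466 and 319.6 to 34.8, 235 and 178 CPM, without overlap, and did not pass (-1.61 ± 0.58, adjusted p = 0.0547). The median of the mitosis genes in the Braf lines was -1.49 with none called by edgeR (DESeq2 called 16, and 25 of 26 had an unadjusted p under 0.05). Among 14 D cyclins and CDK inhibitors 7 rose and 1 fell (50% and 7.14%, against 17.0% and 15.3% of all genes). With each line left out in turn 5, 5 and 3 rose, and without the line block 2 did. Ccnd2, a D cyclin, was at 525, 432 and 633 CPM under vehicle and 2265, 1684 and 2279 CPM with CKI, the reverse of Ccnd1 (1.97 ± 0.31, adjusted p = 0.00157). Ccnd3, Cdkn1b (p27), Cdkn2b (p15) and Rbl2 (p130) rose by 1.58, 1.27, 1.28 and 1.16. Bcl2, which blocks mitochondrial death, rose by 1.31. Fas, a death receptor and p53 target, went from 5.32, 2.29 and 3.67 to 23.9, 36.2 and 37.3 CPM (3.16). Of 16 p53 targets 14 did not pass, and 12.5% rose, against 17.0% of all genes. Not called with a line left out were Anln and Cdkn1b without BA45198, and Bcl2 without BA47473, and Cdkn1b, Cdkn2b, Rbl2 and Bcl2 without BA49112. Dropping the line block left Ccnd2, Cdkn1b, Cdkn2b and Bcl2 uncalled.

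**Figure D3:**
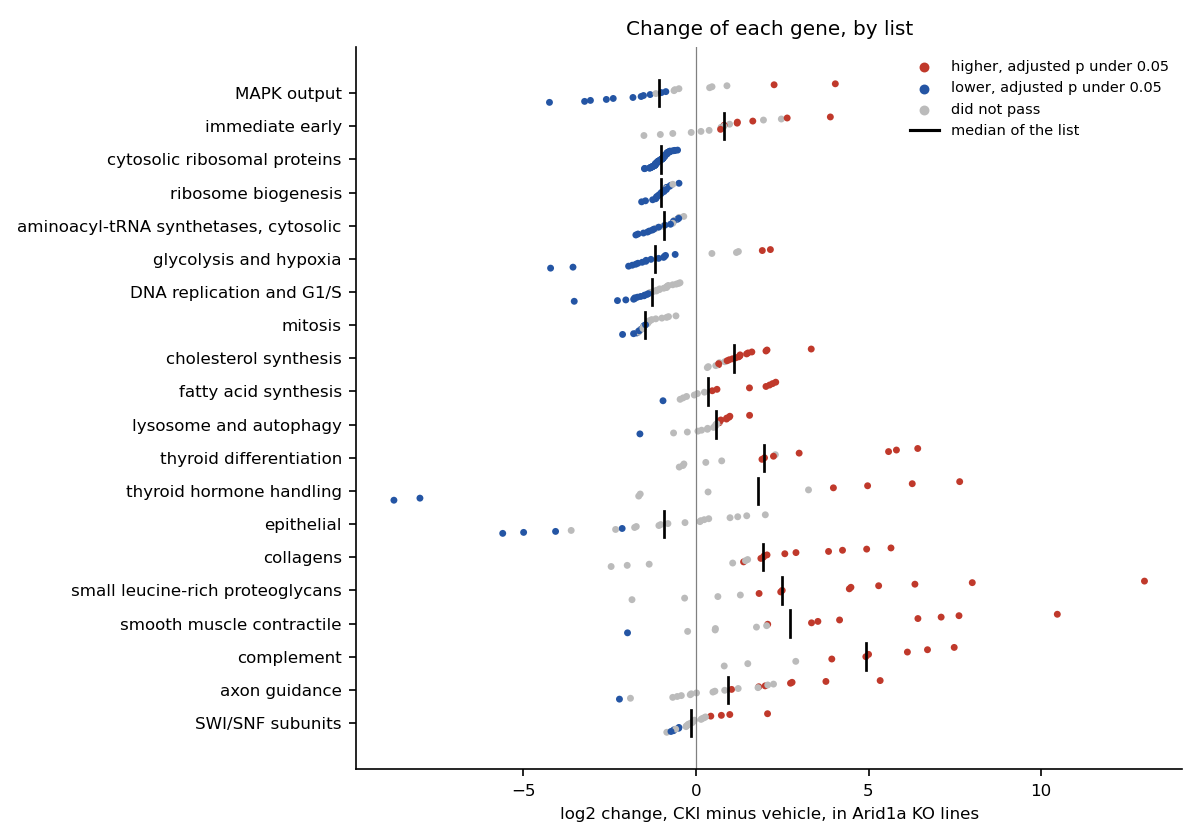
Log2 change from vehicle to CKI of each tested gene in the Arid1a KO lines, 1 row per list, with a bar at the list's median; red points rose and blue points fell at an adjusted p under 0.05, and grey points did not pass. Ribosomal and cell cycle rows lie left of 0, as does most of the glycolytic row. The cholesterol, proteoglycan and complement rows lie mostly right of it, with medians of 1.11, 2.5 and 4.92.

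Sterol synthesis genes rose. Of 20 genes of cholesterol synthesis 15 rose (75%, against 17.0% of all genes) and none fell (median 1.11). All 20 were positive in the fit and 18 had no overlap, against 46.6% of all genes without overlap. With each line left out in turn 11, 10 and 12 rose, and without the line block 8 did. The median change was close to equal in the 3 lines, at 1.14, 1.14 and 1.13. Pmvk, phosphomevalonate kinase, was at 12, 10.3 and 9.92 CPM under vehicle and 126, 111 and 90.9 CPM with CKI. Neither group spread by much and the gap between them was wide (3.34 ± 0.44, adjusted p = 0.000791). Idi1, which makes the isoprene unit used in chain building, went from 5.06, 2.78 and 2.62 to 18.6, 11.2 and 12.9 CPM (2.06 ± 0.41, adjusted p = 0.00444). Lss, lanosterol synthase, went from 28, 17.0 and 18.4 to 87.8, 54.4 and 53.6 CPM (1.62 ± 0.22, adjusted p = 0.000881), and Cyp51, which demethylates lanosterol, from 79.8, 80.5 and 49.4 to 198, 158 and 144 CPM (1.27 ± 0.19, adjusted p = 0.00141). Mvk, mevalonate kinase, was at 12.3, 11.8 and 14 CPM under vehicle and 26.5, 27.2 and 31.1 CPM with CKI (1.15 ± 0.21, adjusted p = 0.00283). In the Braf lines the median was -0.33 and in the Arid2 KO lines 0.21, with none called by edgeR in either (DESeq2 called 1 and 0, and 6 and 2 had an unadjusted p under 0.05). In the difference from the Braf lines edgeR called none at the adjusted threshold, but 18 of 20 had an unadjusted p under 0.05 and DESeq2 called 14; 20 of the 20 differences were positive, with a median of 1.60 and a range of 0.61 to 3.40. For Mvk the difference was 1.17 ± 0.29 (adjusted p = 0.14).

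The promoters of Mvk and Idi1 are printed because each member of this list with a RefSeq promoter held CCAAT, the letters bound by NF-Y. Capitals mark CCAAT, or ATTGG where it is on the other strand, in the 250 bases before the RefSeq start in GRCm38.p6.
Mvk (chr5:114444019-114444268, + strand): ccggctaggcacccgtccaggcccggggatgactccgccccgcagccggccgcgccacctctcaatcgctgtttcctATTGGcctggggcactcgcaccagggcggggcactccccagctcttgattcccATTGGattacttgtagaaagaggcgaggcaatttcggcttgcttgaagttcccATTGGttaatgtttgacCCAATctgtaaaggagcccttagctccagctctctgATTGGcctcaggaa
Idi1 (chr13:8885356-8885605, + strand): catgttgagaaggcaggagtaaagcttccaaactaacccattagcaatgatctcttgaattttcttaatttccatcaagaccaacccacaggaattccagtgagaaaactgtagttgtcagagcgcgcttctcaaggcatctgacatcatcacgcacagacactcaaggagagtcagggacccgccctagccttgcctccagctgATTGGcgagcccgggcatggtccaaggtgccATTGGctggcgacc
CCAAT was in a promoter of 14 of 14 matched genes of the list (100%) and of 37.5% of all 27025 genes. The sterol element letters TCACNCCAC were in 0 of 14 on either strand, against 1.22% of all, which says only that this spelling is not in these windows. None of the motifs was tested for function.

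Fatty acid genes rose in part, 7 of 14 with 1 lower (50% and 7.14%, against 17.0% and 15.3% of all genes). Their median was 0.36. With each line left out in turn 4, 4 and 3 rose, and without the line block 3 did. Fads2, the delta-6 desaturase, was at 40.6, 39.4 and 51.1 CPM under vehicle and 187, 237 and 227 CPM with CKI. The groups lay well apart (2.31 ± 0.28, adjusted p = 0.000566). Me1, malic enzyme, a source of NADPH, went from 14.8, 30.1 and 32.2 to 111, 115 and 115 CPM (2.22 ± 0.24, adjusted p = 0.000398), to nearly the same level in each line. Pparg, the nuclear receptor that drives fat storage, went from 5.01, 1.3 and 3.85 to 24.6, 51.4 and 61.3 CPM (3.84 ± 0.64, adjusted p = 0.00205). Lpl, lipoprotein lipase, which frees fatty acids from circulating particles, was at 1.32, 0.314 and 0.218 CPM under vehicle and 307, 157 and 141 CPM with CKI. It had the smallest adjusted p of the genes given here (8.56 ± 0.51, adjusted p = 4.2e-05). The 8 adipocyte markers, Pparg among them, summed to 1.44 to 5.16 CPM under vehicle and 24.6 to 62.5 CPM with CKI, most of it from Pparg. Of the others, Adipoq had 1 count over the 3 vehicle libraries and 11 over the 3 CKI libraries, and Plin1 0 and 5. Of 21 lysosome and autophagy genes 8 rose and 1 fell (38.1% and 4.76%, against 17.0% and 15.3% of all genes). With each line left out in turn 5, 5 and 4 rose, and without the line block 4 did. Gaa, acid alpha-glucosidase, was at 280.5, 264 and 219.7 CPM under vehicle and 701, 745 and 789.7 CPM with CKI (1.56 ± 0.28, adjusted p = 0.00273), without overlap. Without the line block, Fads2 no longer passed.

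Matrix genes gave some of the largest rises. Of 13 small leucine-rich proteoglycans, which bind collagen fibrils, 9 rose (69.2%, against 17.0% of all genes) and none fell (median 2.5). With each line left out in turn 9, 8 and 8 rose, and without the line block 5 did. Fmod, fibromodulin, was at 0.105, 0 and 0 CPM under vehicle and 22.2, 439.8 and 514 CPM with CKI. It had 2 counts under vehicle and 21574 with CKI, 9920.4-fold higher (95% counting interval 2746 to 81921), with BA45198 the lowest of the CKI libraries. Ogn, osteoglycin, went from 17.8, 48.2 and 15.2 to 564, 435 and 589 CPM (4.49 ± 0.78, adjusted p = 0.00253), and Prelp from 58.1, 0.852 and 0.918 to 958, 529 and 1208 CPM (8.01). Omd, Aspn and Ecm2 rose by 5.29, 6.34 and 4.44. Dcn, decorin, overlapped between treatments and did not pass, at 1040.2, 159.6 and 232 CPM under vehicle and 351, 148 and 368 CPM with CKI (-0.33 ± 0.54, adjusted p = 0.673). In the Braf lines Dcn rose by 5.57 (adjusted p = 0.0083), and the difference between the responses passed, at -5.90 ± 0.84 (adjusted p = 0.0321). Of 17 collagens 11 rose (64.7%, against 17.0% of all genes), with a median of 1.95. With each line left out in turn 10, 6 and 4 rose, and without the line block 1 did. The levels of the fibroblast markers are given above, and their part in these changes was not tested. Col12a1, a collagen on the surface of fibrils, was at 88.4, 22.3 and 19.8 CPM under vehicle and 817, 2519 and 1897 CPM with CKI (5.65 ± 0.79, adjusted p = 0.00101). Of the 10 fibroblast markers 3 rose (30%, against 17.0% of all genes). Among them was Col1a1, the main chain of type I collagen, which went from 10.5, 2.29 and 1.0 to 420.5, 477 and 1172 CPM (7.60 ± 1.35, adjusted p = 0.00272). Dropping the line block left Ogn and Prelp uncalled.

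Contractile genes rose beside them, 8 of 14 with 1 lower (57.1% and 7.14%, against 17.0% and 15.3% of all genes). Their median was 2.71. With each line left out in turn 8, 6 and 5 rose, and without the line block 6 did. Acta2, smooth muscle actin, was at 0, 0 and 0.131 CPM under vehicle and 1.39, 199.8 and 45.5 CPM with CKI. It had 3 counts under vehicle and 5292 with CKI, 1622-fold higher (95% counting interval 555 to 7869), and the CKI libraries were themselves far apart, from 1.39 to 199.8 CPM. Lmod1, leiomodin, went from 0.632, 1.53 and 0.0437 to 32.1, 86.2 and 40.7 CPM (6.43 ± 0.69, adjusted p = 0.000381). Cnn2, a calponin, was abundant in both states at 125, 81.1 and 187 CPM under vehicle and 512, 628 and 447 CPM with CKI (2.08 ± 0.33, adjusted p = 0.00171). Smtn, smoothelin, fell, from 146, 131 and 130.1 to 17.2, 54.9 and 41.6 CPM (-1.98 ± 0.55, adjusted p = 0.0212). Cyr61, a matricellular target of YAP and serum response factor, was at 160.0, 78.3 and 155 CPM under vehicle and 1003, 1087 and 1001 CPM with CKI. The 3 CKI libraries were nearly level (3.04 ± 0.35, adjusted p = 0.000472). Plat, the tissue activator of plasminogen, went from 361, 290.4 and 299.5 to 61.5, 41.9 and 42.5 CPM (-2.72 ± 0.50, adjusted p = 0.00332). Plaur, the urokinase receptor, and Timp1, a metalloprotease inhibitor, fell as well (-3.33 and -3.38). Of the integrins, Itga1 rose by 5.51 and Itgb3 went from 285, 229 and 366 to 3.06, 12.6 and 30.8 CPM (-4.68 ± 0.96, adjusted p = 0.00535). Among the genes given here, Smtn and Timp1 without BA45198, and Smtn and Timp1 without BA49112 did not pass. No call was made without the line block for Smtn, Timp1 and Itga1.

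The keratins of simple epithelia fell, while most epithelial genes did not pass. Of 20 listed and tested 4 fell (20%, against 15.3% of all genes) and none rose, 8 of the 20 had positive changes, and the medians per line were -0.24, -0.11 and 0; 3, 3 and 2 with each line left out in turn and 0 without the line block were lower. The summed level of the list was 330 to 407 CPM under vehicle and 19.0 to 37.0 CPM with CKI, most of it from Krt18 and Krt8, which pair in 1 filament. Krt18 was at 259, 169 and 212 CPM under vehicle and 7.19, 6.30 and 1.54 CPM with CKI. Krt8 went from 70.9, 156 and 109.6 to 8.39, 6.11 and 5.05 CPM, and neither overlapped (-5.59 ± 1.13, adjusted p = 0.00591 and -4.06 ± 1.10, adjusted p = 0.0183). Grhl2, an epithelial master regulator, had 42 counts under vehicle and 1 with CKI, 45.7-fold lower (95% counting interval 7.76 to 1846). Cdh1, E-cadherin, was at or below 3.23 CPM in each library and did not pass (-1.73 ± 0.68, adjusted p = 0.0748). Of 20 mesenchymal genes 2 rose and 2 fell (10% each), below the 17.0% and 15.3% of all genes. Zeb1, a repressor of epithelial genes, went from 302, 299.8 and 208 to 94.1, 123 and 94.9 CPM (-1.37 ± 0.31, adjusted p = 0.00887), and Vim, vimentin, stayed between 2779 and 5719 CPM (0.13 ± 0.25, adjusted p = 0.725). With a line left out, Zeb1 without BA45198, Krt8 without BA47473 and Krt8 without BA49112 no longer passed. Without the line block, Krt18, Krt8, Grhl2 and Zeb1 no longer passed.

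Of 9 complement genes tested 6 rose (66.7%, against 17.0% of all genes), with a median of 4.92. With each line left out in turn 6, 6 and 6 rose, and without the line block 6 did. C3, the central component, was at 6.75, 0.0897 and 0.175 CPM under vehicle and 296, 169.9 and 66.5 CPM with CKI. C1s, a protease of the first component, went from 3.69, 1.21 and 0.350 to 42.1, 31.9 and 69.7 CPM (5.00 ± 0.64, adjusted p = 0.000714), without overlap, and Cd59a, which shields cells from lysis, from 12.5, 6.59 and 4.59 to 186, 118 and 62.0 CPM (3.94 ± 0.51, adjusted p = 0.000705). For C3 the change was 7.48 ± 1.36, adjusted p = 0.00309. Il33, an alarmin stored in the nucleus, had the largest fall among genes of 1 direction in all 3 lines whose mean log2 CPM was 2 or more, from 373, 121 and 848 to 1.35, 0.331 and 1.67 CPM (-8.53 ± 1.21, adjusted p = 0.00105). Il6 had 3 counts under vehicle and 778 with CKI, 238-fold higher (95% counting interval 81.3 to 1159). Cx3cl1, fractalkine, went from 30.6, 1.93 and 5.86 to 116, 144 and 402 CPM (4.87).

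Interferon genes differed between the lines. Of 20 tested 1 passed (5%, against 32.3% of all genes), Ifit2, which fell. The median of the list was -0.43, but per line the medians were -4.17, 0.60 and 2.02. Isg15, a ubiquitin-like modifier, was at 160.3, 1.97 and 1.79 CPM under vehicle and 3.98, 2.32 and 6.06 CPM with CKI, with overlap between treatments. BA45198 held by far the highest vehicle level and lost it, while BA47473 and BA49112 started low and ended higher. The fitted change of -0.71 averages these opposite directions (adjusted p = 0.685). Irf7 (148, 2.38 and 0.655 to 5.80, 5.02 and 6.76 CPM) and Bst2 (164, 3.72 and 3.41 to 6.89, 4.83 and 6.67 CPM) had the same layout, with vehicle and CKI values that overlap. Without BA45198, 7 of the list rose and none fell, and the change of Ifit2 was -0.52, no longer called. MHC class I genes had per-line medians of -1.17, 0.76 and 1.65, in the same order. Of 12 tested 3 rose (25%, against 17.0% of all genes), and 5, 0 and 0 did with each line left out in turn.

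Among genes of developmental signalling Sfrp1 rose and Wnt7b, Bmp2 and Crabp1 fell in all 3 lines. Of 23 Wnt genes 5 rose (21.7%, against 17.0% of all genes) and 4 fell (17.4%, against 15.3%), with 5, 7 and 5 with each line left out in turn and 2 without the line block higher. Sfrp1, a secreted Wnt antagonist, was at 4.27, 0.449 and 0.655 CPM under vehicle and 2177, 152 and 608 CPM with CKI. All vehicle libraries were at or under 4.27 CPM and all CKI libraries at 152 CPM or more (9.11 ± 1.29, adjusted p = 0.00106). Wnt7b, a ligand, went from 35.9, 77.0 and 153 to 0.193, 0.142 and 0.439 CPM (-8.32 ± 1.3, adjusted p = 0.00159), and Axin2, a feedback target of beta-catenin, from 24, 39.2 and 42.0 to 4.02, 1.23 and 3.29 CPM (-3.70 ± 0.77, adjusted p = 0.00578). Lrp6, the Wnt coreceptor, rose from 265, 174 and 148 to 1058, 445 and 503 CPM (1.71 ± 0.16, adjusted p = 0.000238). Bmp2, a bone morphogenetic protein, went from 609, 481 and 684 to 33.5, 30.6 and 19.8 CPM (-4.42 ± 0.71, adjusted p = 0.00177), whereas Bmp4 and the antagonist Nog rose by 2.57 and 3.21. Jag1, a Notch ligand, went from 54.2, 12 and 13.3 to 134, 117 and 78.5 CPM (2.38), with Notch3 at 2.66. Slit3, a guidance ligand of Robo receptors, went from 12.2, 57.5 and 88.6 to 108, 379 and 455 CPM (2.74 ± 0.26, adjusted p = 0.000642). Crabp1, which holds retinoic acid in the cytoplasm, was at 853, 406 and 794 CPM under vehicle and 26.4, 2.51 and 12.2 CPM with CKI (-6.08 ± 0.83, adjusted p = 0.000881). It was lowest in BA47473 in both states. A fit that ignored the pairing by line did not call Bmp2, Bmp4, Jag1, Notch3 and Slit3.

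Of 24 tested SWI/SNF subunits 4 rose and 5 fell, 37.5% against 32.3% of all genes (median -0.13); 3, 2 and 1 with each line left out in turn and 2 without the line block were higher and 3, 2 and 1 with each line left out in turn and 3 without the line block lower. Smarca2, the BRM ATPase, was at 44.5, 37.5 and 26.5 CPM under vehicle and 154, 146 and 147 CPM with CKI. The CKI libraries were nearly equal and well above the vehicle libraries (2.08 ± 0.27, adjusted p = 0.000745). Smarca4, the BRG1 ATPase that can take its place, was at 318, 298 and 347 CPM under vehicle and 269.5, 285 and 272 CPM with CKI; its groups did not overlap and it did not pass (-0.22 ± 0.13, adjusted p = 0.205). Arid1b, the paralogue that replaces Arid1a in BAF, was at 145, 124 and 104 CPM under vehicle and 189, 172 and 142 CPM with CKI. The groups overlapped, while each line was higher with CKI than with vehicle (0.43 ± 0.11, adjusted p = 0.0159). Arid2, of the PBAF form, did not pass (0.24 ± 0.13, adjusted p = 0.174), and Pbrm1, its partner, changed by -0.49. Smarcc1 and Actl6a, shared core subunits, changed by -0.65 and -0.64, and Smarcc2 and Smarcd3 by 0.74 and 0.98. Of 17 Polycomb genes, whose complexes oppose SWI/SNF, 5 rose and 5 fell (29.4% each, against 17.0% and 15.3% of all genes). With each line left out in turn 3, 1 and 0 rose and 1, 1 and 1 fell. Without the line block 2 rose and 1 fell. Ezh2, the methyltransferase, changed by -1.15, Suz12, its partner, by -0.91, and Kdm6b, which removes the mark, by 1.26. With a line left out, Arid1b, Pbrm1 and Ezh2 without BA45198, and Arid1b, Pbrm1, Actl6a, Smarcd3, Ezh2 and Kdm6b without BA47473, and Arid1b, Pbrm1, Actl6a, Smarcc2, Smarcd3, Ezh2 and Kdm6b without BA49112 no longer passed. The fit without the line block did not call Arid1b, Smarcd3 and Ezh2.

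Of 18 genes of the integrated stress and unfolded protein response 5 fell (27.8%, against 15.3% of all genes) and none rose. Among the 5 were Psat1 (-2.59) and Phgdh (-1.88), which make serine, and Asns (-2.42), asparagine synthetase. The number that fell was 6, 2 and 1 with each line left out in turn and 6 without the line block. Heat shock genes had 5 of 12 higher (41.7%, against 17.0% of all genes), and 4, 0 and 0 with each line left out in turn and 2 without the line block. Gstm1, a glutathione transferase and NRF2 target, was at 52.5, 42.6 and 63.1 CPM under vehicle and 571, 689.5 and 639 CPM with CKI. The groups were far apart and each tight (3.60 ± 0.52, adjusted p = 0.00116). Slc7a11, the cystine importer, fell (-2.58). The adjusted p rose to 0.05 or above for Asns and Slc7a11 without BA47473, and Phgdh, Asns and Slc7a11 without BA49112.

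The largest changes among genes of 1 direction in all 3 lines whose mean log2 CPM was 2 or more fell outside the lists for the most part. Sema3g, a secreted semaphorin, was at 0.0527, 0.359 and 0.131 CPM under vehicle and 892, 242 and 119 CPM with CKI. Fhl1, a LIM-domain protein of muscle, was at 3.27, 0.0449 and 0.218 CPM under vehicle and 2483, 93.3 and 428 CPM with CKI. Both had vehicle libraries near 0 and CKI libraries at 93.3 CPM or more, highest in BA45198 (10.72 ± 1.61, adjusted p = 0.00137 and 10.09 ± 0.96, adjusted p = 0.000238). Galntl1, a glycosyltransferase-like gene, followed (0.263, 0.0897 and 0.131 to 475, 124 and 43.4 CPM; 10.07 ± 0.94, adjusted p = 0.000238), without overlap. Sod3, the extracellular superoxide dismutase, went from 2.27, 1.03 and 0.0437 to 503, 99.1 and 505 CPM (8.31), and Dclk1, a microtubule-associated kinase, from 1.42, 0.224 and 2.49 to 619.7, 163 and 272 CPM (8.10). Aox3 (8.87), Ces1d (8.52), Fam189a2 (8.48) and Serpinb6b (8.04) complete the set with Fmod, Sfrp1 and Lpl. Among the falls, Trpa1, an irritant-gated cation channel, was at 450.3, 58.3 and 66.4 CPM under vehicle and 0.928, 0.0947 and 0.439 CPM with CKI. Vehicle cells of BA45198 had the most, and every CKI library was under 1 CPM (-8.39 ± 1.07, adjusted p = 0.000704). Inmt, a methyltransferase abundant in vehicle cells, went from 2452, 549.6 and 489 to 6.58, 3.17 and 5.35 CPM (-7.50 ± 1.17, adjusted p = 0.0016). Cd38, an NAD-consuming ectoenzyme, went from 244, 221 and 18.1 to 0.464, 0.568 and 0.483 CPM, and Trf, transferrin, from 446, 352 and 17.8 to 2.05, 0.521 and 1.45 CPM. In both, BA49112 had much less than the other lines before treatment, and all CKI libraries were lower (-7.82 and -7.00). Pi16 (-7.48), Evi2a (-6.60), Ndst3 (-6.49) and Trbc2 (-6.41) fell too.

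Across all tested genes the responses of the 3 lines resembled each other, with Pearson correlations of 0.67 to 0.77, given as a description since the lines share the platform and the genes are not independent. Braf line B52482 came close to that, at 0.66 to 0.71 with the Arid1a KO lines, and B48051 was at 0.34 to 0.38. Some called genes changed by widely different amounts in the 3 lines. Col28a1, a collagen of nerve sheaths, changed by -9.55, -9.65 and -1.54, and its vehicle level was 14.8 CPM in BA49112 against 273 and 1068 CPM in the others. Ltbp2, a latent TGF-beta binding protein, changed by 0.56, 8.76 and 7.26, with BA45198 nearly flat. Serpinb1a changed by 6.75, 1.16 and 8.11 and Cacna1i, a calcium channel, by -4.87, -8.09 and -1.41. Leaving out BA47473 moved Ltbp2 from 5.85 to 3.56 and Serpinb1a from 5.24 to 7.95; without BA49112, Serpinb1a was at 3.48. Calls lost with a line left out were Serpinb1a, Col28a1 and Cacna1i without BA45198, and Ltbp2, Col28a1 and Cacna1i without BA47473, and Ltbp2 and Serpinb1a without BA49112. The fit without the line block did not call Ltbp2, Serpinb1a, Col28a1 and Cacna1i.

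Whether the response depended on Arid1a was tested as the difference of the CKI change between genotypes in the same fit. Against the Braf lines 23 genes passed (0.147%), 18 with a higher response in Arid1a KO lines (0.115%) and 5 with a lower one (0.0320%); 1945 had an unadjusted p under 0.05. This edgeR count was 0 without the line block, 0 in a fit of only the compared genotypes and 0 without BA47473, B47275 or B48051 (1261 to 2075 genes at an unadjusted p under 0.05 with the block, 801 without it), 10 without BA49112, 12 without BA45198 or without the Smarcb1 KO lines, 194 without B52482, 69 without a filter and 45 with a filter at 1 CPM in 6 libraries, while DESeq2 called 607. Across all genes the 2 responses had a Pearson correlation of 0.70, as a description. Of the 23, 22 were also called in the Arid1a KO response itself.

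**Figure D4:**
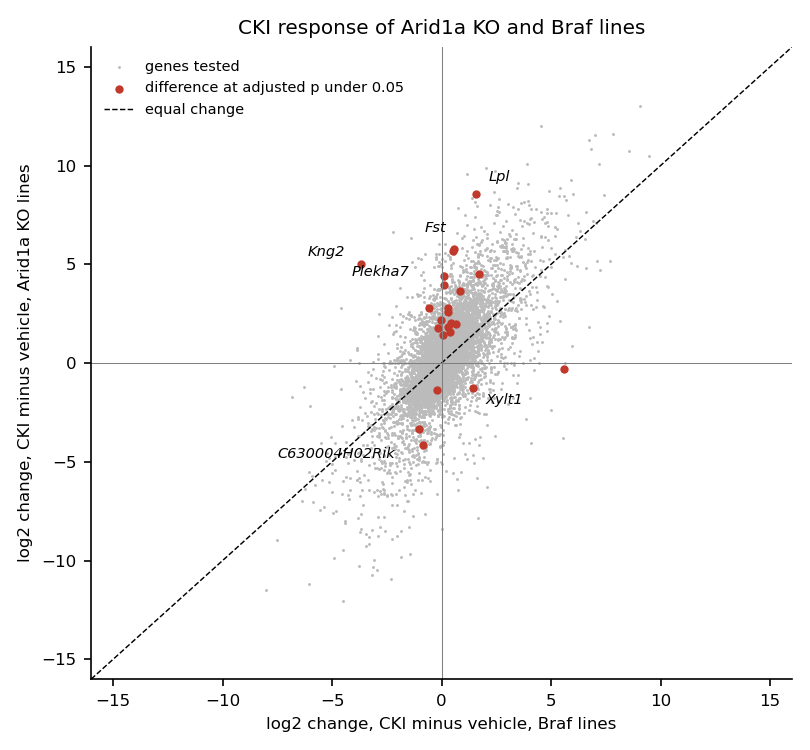
Log2 change from vehicle to CKI of each of 15634 genes in the Braf lines (horizontal) and in the Arid1a KO lines (vertical), with a dashed line at equal change; red points are the 23 genes whose difference had an adjusted p under 0.05. Lpl, Fst and Kng2 lie far above the line of equal change, and Xylt1 and C630004H02Rik below it.

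Fst and Plekha7 were lower in vehicle cells of the Arid1a KO lines than in the Braf lines. Fst, follistatin, which binds activins, was at 1.53, 0.673 and 0.874 CPM under vehicle and 18.5, 89.4 and 94.0 CPM with CKI in the Arid1a KO lines. In the Braf lines it was at 137, 85.3 and 80.4 CPM under vehicle and 179, 157 and 111 CPM with CKI. All Arid1a KO vehicle libraries were below all others, and with CKI each Arid1a KO library was still below each Braf library; the difference of the changes was 5.22 ± 0.70, adjusted p = 0.0229. Plekha7, a protein of adherens junctions, went from 1.37, 1.39 and 1.35 to 33.5, 42.2 and 16.7 CPM in the Arid1a KO lines and was at 30.2, 73.2 and 15.5 CPM under vehicle and 24.6, 68.6 and 25.2 CPM with CKI in the Braf lines. With CKI 2 of its 3 Arid1a KO libraries lay within the range of the Braf CKI libraries and 1 was below it (4.29 ± 0.52, adjusted p = 0.0209). Cachd1, a protein related to calcium channel subunits, rose by 3.65 in the Arid1a KO lines and changed by 0.84 in the Braf lines without passing (2.81 ± 0.38, adjusted p = 0.0229 for the difference). Smpd3, a neutral sphingomyelinase, was at 1.53, 1.61 and 0.524 CPM under vehicle and 62.1, 44.8 and 72.8 CPM with CKI and, in the Braf lines, at 2.62, 13.2 and 10.2 CPM under vehicle and 4.10, 8.95 and 28.7 CPM with CKI (5.14 ± 0.76, adjusted p = 0.0321).

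Other genes had little in the Braf lines under either treatment. Lpl, at 141 to 307 CPM in Arid1a KO cells with CKI, was at 1.59, 0 and 0 CPM under vehicle and 3.99, 0.0840 and 0.128 CPM with CKI in the Braf lines. Only B47275 exceeded 0.2 CPM with CKI there, and the difference was 6.99 ± 0.87, adjusted p = 0.0216. Without B47275 it was 4.34 and was not called (adjusted p = 1). Fgf7, a ligand of Fgfr2, was at 5.80, 4.71 and 21.0 CPM under vehicle and 174, 60.8 and 201 CPM with CKI in the Arid1a KO lines and stayed at or under 5.21 CPM in each Braf library (3.82 ± 0.60, adjusted p = 0.0386). Kng2, a kininogen, went from 14.5, 0.0897 and 0.350 to 199.98, 2.65 and 40.9 CPM in Arid1a KO lines, higher in each line although the ranges overlap, and was listed at 0 in 2 of 3 Braf libraries with CKI. Its fitted difference of 8.68 ± 1.20, adjusted p = 0.0321 rests on these near-0 counts. Among the genes lower in the Arid1a KO response, Xylt1, which starts glycosaminoglycan chains, was at 61.5, 53.2 and 25.6 CPM under vehicle and 17.5, 21.8 and 16.3 CPM with CKI. It rose in the Braf lines, with 2.25, 1.41 and 10.4 CPM under vehicle and 5.10, 5.67 and 23.6 CPM with CKI (-2.68 ± 0.37, adjusted p = 0.0229). Synj2, a phosphoinositide phosphatase, fell in both genotypes, with changes of -3.32 in Arid1a KO and -1.04 in Braf lines (-2.28 ± 0.29, adjusted p = 0.0229). Zc3hav1, an antiviral zinc finger protein, fell in the Arid1a KO lines (-1.38) and changed by -0.21 in the Braf lines (-1.17 ± 0.18, adjusted p = 0.0384).

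**Figure D5:**
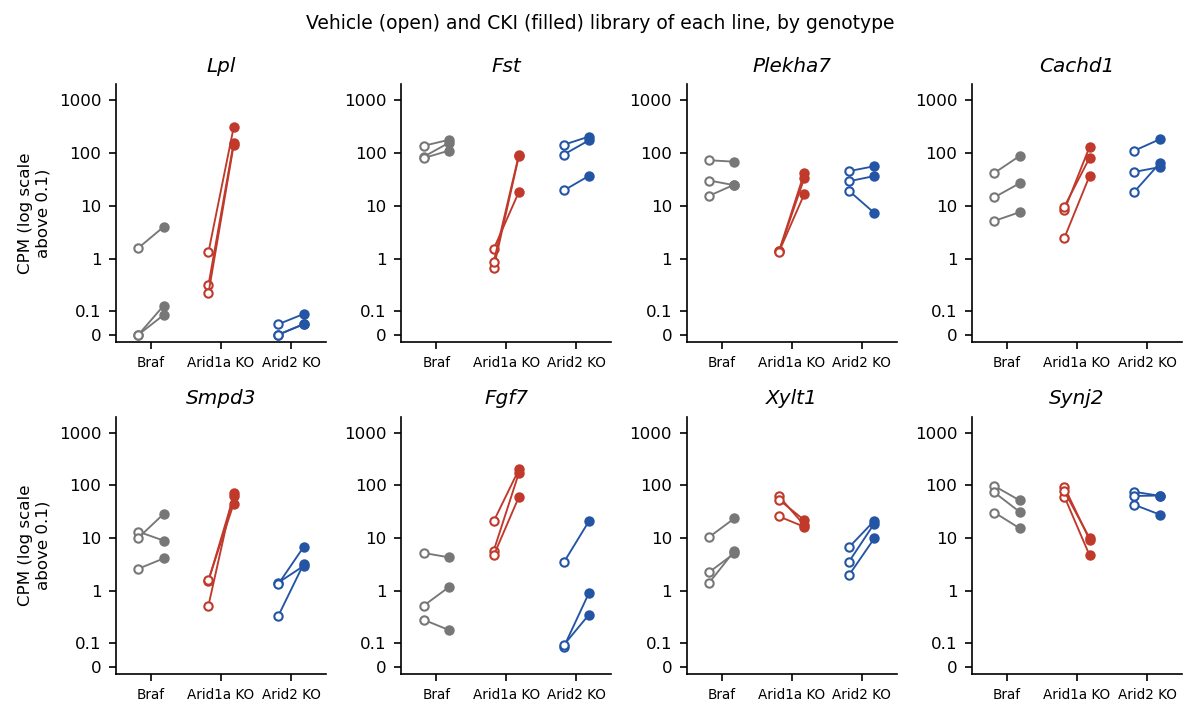
CPM of 8 genes in the vehicle (open) and CKI (filled) library of each line of 3 genotypes, joined by line, on an axis that is logarithmic above 0.1 CPM. Fst and Plekha7 start lower in the Arid1a KO lines than in the Braf lines, and with CKI Fst stays below the Braf libraries while Plekha7 overlaps them; Lpl is above 100 CPM only in Arid1a KO cells with CKI, and Xylt1 goes down in the Arid1a KO lines and up in the Braf lines.

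Against the Arid2 KO lines 47 genes passed (0.301%), 28 higher (0.179%) and 19 lower (0.122%), with 1892 at an unadjusted p under 0.05. The edgeR count was 0 without the line block (809 at an unadjusted p under 0.05), 25 with only the compared genotypes, 24 without the Smarcb1 KO lines, 8 without BA47473 or AB55694, 10 without AB52980 and 11 without BA49112, and DESeq2 called 615. Both differences use the same Arid1a KO libraries. Fst passed here too: the Arid2 KO lines had 19.5, 93.8 and 144 CPM under vehicle and 37.0, 175 and 205 CPM with CKI (5.01 ± 0.70, adjusted p = 0.0199). Plekha7 had 19.2, 29.2 and 45.5 CPM under vehicle and 7.31, 36.7 and 56.4 CPM with CKI there (4.61 ± 0.52, adjusted p = 0.00783). Cbfa2t3, a transcriptional corepressor, was at 29.7, 36.9 and 37.0 CPM under vehicle and 0.696, 0.331 and 0.483 CPM with CKI in the Arid1a KO lines and at 0.403, 0.805 and 0.279 CPM under vehicle and 0.0881, 2.63 and 0.529 CPM with CKI in the Arid2 KO lines (-6.67 ± 1.15, adjusted p = 0.0469). All 3 Arid1a KO lines lost most of it, and the Arid2 KO lines had little before treatment. Kif26b, a kinesin-like protein, rose by 5.01 in the Arid2 KO lines and did not pass in the Arid1a KO lines (-1.34), with a difference of -6.35 ± 1.02, adjusted p = 0.0357.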

How the data were processed

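Per the labels' protocols, TRIzol was used for the RNA and a TruSeq RNA kit for the libraries. The authors deposited 1 table of raw read counts per gene symbol (33924 symbols) for the build mm9; STAR 2.4, HTSeq 0.6.1 and DESeq2 are listed in the submitters' processing notes, without their roles. The deposited counts were used as they stand, no library was left out, no pair of columns was identical, and the 6 libraries held 20860235 to 26670135 counts, so genes with few counts have wide errors.

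The 24 tumor libraries were fitted together in edgeR 4.0.16 (R 4.3.3, limma 3.58.1): TMM scaling, a filter by group (15634 genes kept), a term per line and a CKI term per genotype, 8 residual degrees of freedom, quasi-likelihood F-test, Benjamini-Hochberg adjustment over all genes, threshold 0.05. Standard errors are the log2 change over the root of F. Per-line changes use log2 CPM with a prior count of 2. The line number pairs vehicle and CKI libraries of the same tumor line; their deviations from the group means correlated at 0.36, 0.42 and 0.26. On simulated counts for this comparison (15239 unchanged genes tested, 4 called) the test recovered 78% of 100 genes changed 4-fold and 29% of 100 changed 2-fold. The changed genes were drawn from those of higher mean count and had the same change in every line. Far fewer genes were changed than were called in the data, so these shares do not measure the power reached here. Fits without the block, with other size factors or filters, with DESeq2 1.42.0, with fewer genotypes and without each line were compared.

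The lists of genes (51 lists, and 3 more written after their values were seen: proteoglycans, tRNA synthetases and ribosomal proteins) and the libraries were chosen with earlier results of these data known. Named were the targeted genes, all ERK output and thyroid genes, up to 4 called genes per list and direction by smallest adjusted p (3 where 10 or more passed), and, at an average log2 CPM of at least 2, the 12 largest rises and falls and the 8 largest differences each way among called genes that moved in the same direction in all 3 lines, and the 6 called genes with the widest range over lines. Adipoq, Arid2, Bst2, Btg2, C3, Cd3e, Cdh1, Cdkn1b, Dcn, Gcm2, Idi1, Irf7, Isg15, Jund, Ldha, Mki67, Mvk, Ogn, Pgk1, Plin1, Prelp, Slc16a3, Smarca4, Srf and Vim fall outside that rule and were chosen after their values were seen. A few genes that the rule names are not reported here. Intervals of low-count ratios are exact 95% intervals of counting error, and 3 counts over a group were the floor. Promoters are RefSeq's, in GRCm38.p6.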

Additional observations from a re-analysis of the deposited data

Results flagged for a closer look

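The CKI response differed between genotypes, by the test of the difference itself, for the genes given here as log2 differences. Higher in Arid1a KO than in Braf lines were Kng2 (8.68), Lpl (6.99), Fst (5.22), Smpd3 (5.14), Plekha7 (4.29), Fgf7 (3.82), Tmod2 (2.81), an actin filament capping protein, and Cachd1 (2.81). Lower than in Braf lines were C630004H02Rik (-3.29), Xylt1 (-2.68), Synj2 (-2.28), Zc3hav1 (-1.17), and Dcn (-5.90), whose changes in the 3 Arid1a KO lines differed in direction. Tmod2 rose in both genotypes, by 4.53 and 1.71, and C630004H02Rik fell in the Arid1a KO lines (-4.15) and changed by -0.86 in the Braf lines.

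Against the Arid2 KO lines the response was higher for Fst (5.01), Emb (4.93), a chaperone of lactate transporters, Plekha7 (4.61), Rgnef (3.82), Pcsk6 (3.60), a proprotein convertase, Celf5 (3.22), an RNA-binding protein, Thsd1 (3.20) and Cachd1 (2.73). It was lower for Cbfa2t3 (-6.67), Kif26b (-6.35), Kcnh2 (-5.66), a potassium channel, Xylt1 (-3.36), Pxdn (-3.21), peroxidasin, Synj2 (-3.04), C630004H02Rik (-2.86) and Adamts7 (-2.63), a matrix protease. Kcnh2 fell by 5.76 on the log2 scale in the Arid1a KO lines and changed by -0.10 in the Arid2 KO lines. Xylt1, Pxdn and Adamts7 fell in the Arid1a KO lines and rose in the Arid2 KO lines. The Arid1a KO values of Adamts7, Emb and Kif26b overlapped between vehicle and CKI. Pcsk6 rose in the Arid1a KO lines (1.91) and fell in the Arid2 KO lines (-1.68). In the Arid1a KO response itself, Pxdn and Adamts7 without BA45198, Adamts7 without BA47473, and Pxdn, Adamts7 and Pcsk6 without BA49112 did not pass. Without the line block, the responses of Emb, Xylt1, Pxdn, Adamts7 and Pcsk6 no longer passed. The edgeR count of differences went from 47 to 32, 8 and 11 with each Arid1a KO line left out in turn. Without the line block it was 0, so none of the differences given here passed. Both sets of differences use the same 6 Arid1a KO libraries.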

How the results depend on the processing

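The count of called genes in the Arid1a KO response was 2177 without the replicate block (1107 higher, 1070 lower) and between 2306 and 3296 with a line left out (1319 to 1830 higher, 987 to 1466 lower), which leaves fewer samples. Size factors by RLE, DESeq2, the other filters, fewer genotypes and leaving out the Smarcb1 KO lines kept it within 1.5 times of 5053, between 3589 and 6066, and the median change of all genes kept between 0.001 and 0.035 over the same genes. The difference from the Braf lines had 0 calls without the replicate block, 0 with only the compared genotypes (with the block), 607 by DESeq2, 69 without a filter, 45 at 1 CPM in 6 libraries, 12 without the Smarcb1 KO lines and 0 to 194 with a line left out. The difference from the Arid2 KO lines had 0 without the replicate block, 615 by DESeq2, 25 with only the compared genotypes (with the block), 24 without the Smarcb1 KO lines and 8 to 69 with a line left out. The cause of these shifts was not tested.

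Of 311 named genes, 118 lost their call without the replicate block, 63, 76 and 95 without BA45198, BA47473 and BA49112, 45 of 300 with only the compared genotypes, 14 without a filter, 14 without the Smarcb1 KO lines, 2 with DESeq2 and 0 with RLE. Signs changed in 9 genes that did not pass: Irf7 was -3.10 without the replicate block, and with a line left out Bst2 ranged from -2.21 to 0.65, Dcn from -0.84 to 0.26, Irf7 from -1.89 to 2.13, Isg15 from -2.70 to 0.98, Vim from -0.20 to 0.29, Arid1a from -0.25 to 0.14, Duox1 from -0.12 to 0.94 (and -0.11 without BA49112), Duoxa1 from -1.46 to 0.56 and Slc5a5 from -0.75 to 0.0061. With 3 lines the simulated test recovered 29% of 2-fold changes, but few genes were changed there, so this does not measure the power reached here. Counts near 0 limit Slc5a5 and Foxe1.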

Other observations

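Further lists are given as counts of called genes, beside 17.0% higher and 15.3% lower among all genes tested. Of 14 retinoic acid genes 2 rose and 4 fell (14.3% and 28.6%): Aldh1a1, which makes retinoic acid from retinal, rose by 4.82, while Aldh1a2 and Aldh1a3, of the same function, changed by -3.25 and -3.65, and Cyp26b1, which breaks it down, rose by 6.29. Axon guidance genes had 7 of 22 higher and 1 lower (31.8% and 4.55%), and Notch genes 4 of 13 higher (30.8%). BMP and Id genes had 6 of 16 higher and 2 lower (37.5% and 12.5%). Among 20 genes of matrix adhesion 6 rose and 6 fell (30% each), and among 18 proteases and inhibitors 5 rose and 3 fell (27.8% and 16.7%). Neuronal markers summed to 10.1 to 38.2 CPM under vehicle and 2.56 to 12 CPM with CKI, and glial and neural crest markers to 38.9 to 76.3 and 17.9 to 21.5 CPM. Ret, the receptor tyrosine kinase of C cells, went from 0.843, 0 and 0.743 to 40.1, 21.7 and 8.12 CPM. The C cell and parathyroid markers did not move together. Of 5 tested 2 rose and 3 did not pass, and 3 had positive and 2 negative changes, from -6.18 to 5.45. Calls lost with a line left out were Aldh1a2, Aldh1a3, Cyp26b1 and Ret without BA45198, and Aldh1a1, Aldh1a3, Cyp26b1 and Ret without BA47473, and Aldh1a1 and Cyp26b1 without BA49112. The fit without the line block did not call Aldh1a1, Aldh1a2 and Aldh1a3.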
